A study of Rattus norvegicus with 8 samples.

Results

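The interleukin-1 family was followed in the rat ovary through 9 genes. These are the receptor genes Il1rl1, Il1r1, Il1r2 and Il1rap, the cytokine genes Il33, Il1a, Il1b and Il18, and the antagonist gene Il1rn. They were taken as every non-control probe whose gene name in the scanner files equals one of these symbols, which gave 12 of the 30350 probes used, each kept apart from the other probes of its gene. Il1rl1, Il1rap and Il1a have 2 probes each and the other genes have 1. The genes were chosen with the difference between the groups already known, so their values are a description and carry no test.

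Whole ovaries of female rats were profiled on 1-colour Agilent arrays, in 2 groups of 4 arrays. Rats of the group labelled PMSG received 50 IU of PMSG (pregnant mare serum gonadotropin, which acts mainly like follicle-stimulating hormone) in a volume of 0.2 ml under the skin at an age of 26 days. Rats of the control group received the vehicle, albumin phosphate buffer, in the same volume and at the same age. The titles of the control samples, by contrast, call them a reference without treatment. Ovaries of both groups were taken 48 h after the first injection, at 28 days. The strain is not given in the sources used here, and nothing in the labels says that the arrays of a group came from separate animals, so p-values measure only the spread between these samples.

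Interleukin-1 family cytokines signal through paired receptor chains. Il1r1 encodes the signalling receptor for interleukin-1 alpha and beta, Il1r2 encodes a decoy that binds interleukin-1 without signalling, and Il1rap encodes the accessory chain that both Il1r1 and the interleukin-33 receptor need. Il1rl1 encodes ST2, the receptor of interleukin-33. From this gene come a full-length membrane receptor and a shorter secreted form, which binds interleukin-33 away from cells. ST2 is best known on mast cells, group 2 innate lymphoid cells and type 2 T cells, and interleukin-1 has long been studied in the ovary for its part in follicle growth and ovulation.

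The probes for which the results turn on the exact place in the gene are shown here, 5′ to 3′ in the sense of the transcript, with coordinates on the rat build rn4 named in the file headers. No base is capitalised, since the data single out none. Both Il1rl1 probes lie on the plus strand of chromosome 9. The probe for transcript variant 1 is at chr9:39617225-39617284, at base 2488 of its transcript. The probe for variant 2 lies 1990 bases further downstream, at base 1345 of its own transcript, and its 60 bases span 1468 bases of genome (chr9:39619275-39620742), so it crosses an intron. The files number the 2 variants and do not say which protein form each encodes. The values of neither probe are therefore assigned to the membrane receptor or to the secreted form. Il1r1 (chr9:39472634-39473165) and Il1r2 (chr9:39316654-39319494) are also read by probes that cross an intron, over 532 and 2841 bases of genome. Il33 is read at chr1:233685259-233685318. For the Il1rl1 variant 1 and Il33 probes the first 30 of the 60 bases are given, and the other probes are given whole.

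Il1rl1 variant 1: tttttaattcacctgttgctattcaaatca
Il1rl1 variant 2: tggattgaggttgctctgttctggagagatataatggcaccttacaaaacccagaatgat
Il1r1: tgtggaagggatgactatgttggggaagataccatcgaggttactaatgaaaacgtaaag
Il1r2: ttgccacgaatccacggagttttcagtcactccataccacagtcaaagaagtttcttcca
Il33: ccaacatatccgtaacaggtctccttctca

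No other probe of the array shared a run of 20 bases with any of these 5 probes. The remaining members lie on chromosome 11 (Il1rap), chromosome 3 (Il1a, Il1b and Il1rn) and chromosome 8 (Il18).

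Values below are log2 processed signals minus the 75th percentile of their array, so that 0 is the signal below which 75% of the probes of the array lie. Each probe responds to its target in its own way, so levels are compared between arrays and never between probes. The 75th percentile lay between 769 and 1103 intensity units on the 8 arrays, and 80.8% to 84.6% of probes were well above background. Arrays of the control group correlated with each other at 0.987 to 0.993, those labelled PMSG at 0.977 to 0.991, and arrays of different groups at 0.960 to 0.972. Over all 25303 tested probes the median log2 difference between arrays labelled PMSG and control was 0.11. Among the cell markers, the granulosa cell genes Star and Cyp11a1 fell and Amh rose in the arrays labelled PMSG, which runs against the direction generally known for this hormone, so every direction is given by the labels alone.

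The Il1rl1 probe for variant 1 had the largest difference of the family. Its scaled levels were -0.33, -0.14, -0.22 and -0.23 on control arrays 1 to 4. On the arrays labelled PMSG they were -5.22, -5.28, -4.96 and -4.47. All 4 PMSG arrays lay far below all 4 control arrays, and the groups did not overlap. The mean was -0.23 ± 0.08 (SD, n = 4) in controls and -4.98 ± 0.37 (SD, n = 4) in arrays labelled PMSG, a log2 difference of -4.75 with a standard error of 0.18 in the fit, or 26.9-fold lower. It was the 7th lowest difference among all tested probes. Before scaling, the signal was 830, 955, 860 and 938 intensity units on the control arrays and 26.3, 26.4, 24.7 and 48.9 on the PMSG arrays, still well above background on all 8. The largest spread in the PMSG group came from array 4, whose level was the highest of that group. With normexp background correction, which adds an offset of 50 units, the difference was -3.20.

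The other Il1rl1 probe, which reads variant 2 further downstream, gave a different picture. Its levels were -5.79, -5.99, -5.82 and -5.54 on the control arrays and -5.81, -5.97, -5.31 and -6.37 on the PMSG arrays. The groups overlapped fully, with both the highest and the lowest array in the group labelled PMSG. The difference was -0.08 with a standard error of 0.22. Its unscaled signal stayed between 13.1 and 23.7 units, well above background on all 8 arrays but dim, and the median SD between its 2 spots on an array was 0.26 log2 units.

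**Figure D1:**
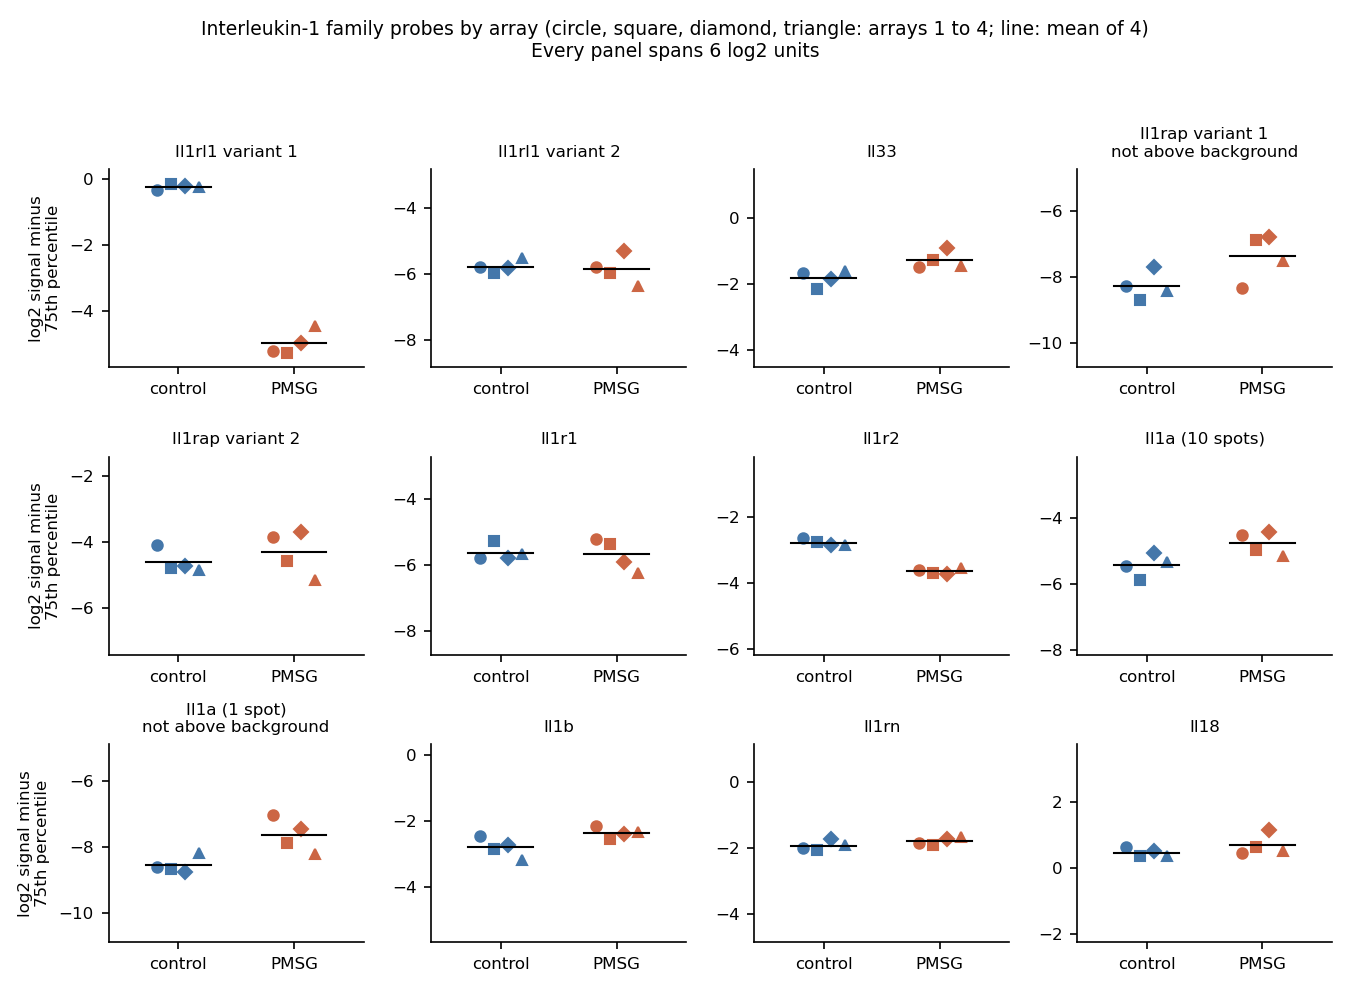
Level of each of the 12 interleukin-1 family probes on each array, as log2 signal minus the 75th percentile of the array, with control arrays in blue, arrays labelled PMSG in orange and the mean of 4 as a line. Every panel spans the same number of log2 units, and the Il1rl1 variant 1 probe drops from a mean of -0.23 to -4.98 while the variant 2 probe overlaps between the groups; only order within a panel can be read.

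The decoy receptor Il1r2 was the other member with lower values in the arrays labelled PMSG. Its levels were -2.65, -2.77, -2.86 and -2.85 on the control arrays and -3.62, -3.70, -3.73 and -3.56 on the PMSG arrays. The 4 arrays of each group lay close together and the groups were fully apart. The means were -2.78 ± 0.10 and -3.65 ± 0.07 (SD, n = 4 each), a difference of -0.87 with a standard error of 0.09, or 1.83-fold lower. The direction held in all 17 alternative settings, in which the difference ranged from -1.04 to -0.51.

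The signalling chains did not separate the groups. Il1r1, the signalling receptor, stood at -5.80, -5.28, -5.80 and -5.66 on the control arrays and at -5.21, -5.36, -5.92 and -6.25 on the PMSG arrays, and the groups overlapped. Its difference was -0.05 with a standard error of 0.25. The Il1r1 probe was dim, at 12.7 to 27.2 units before scaling. The SD between its 2 spots on an array had a median of 0.17 and reached 1.01 log2 units. Il1rap, the accessory chain, was measured by its variant 2 probe at -4.09, -4.80, -4.75 and -4.88 in controls and at -3.87, -4.59, -3.72 and -5.16 in arrays labelled PMSG, a difference of 0.30 with a standard error of 0.33. The lowest and the highest of these 8 values were both PMSG arrays, and this probe has 1 spot. The Il1rap variant 1 probe was not well above background on any array, so no difference is given for it.

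Among the cytokines, Il33, the ligand of ST2, had higher values in the arrays labelled PMSG. Its levels were -1.68, -2.15, -1.84 and -1.62 on the control arrays and -1.48, -1.27, -0.91 and -1.47 on the PMSG arrays. The groups did not overlap, although the highest control and the lowest PMSG array lay close together. The means were -1.82 ± 0.24 and -1.28 ± 0.26 (SD, n = 4 each), a difference of 0.54 with a standard error of 0.17, or 1.45-fold. The arrays lay in 2 rows of 1 slide, each row with 2 arrays of each group, and the difference was 0.79 within row 1 and 0.28 within row 2.

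Il1a and Il1b, which encode the agonists interleukin-1 alpha and beta, are each read by a probe with 10 spots on the array. Il1a stood at -5.44, -5.88, -5.07 and -5.34 in controls and at -4.53, -4.98, -4.41 and -5.16 in arrays labelled PMSG. PMSG array 4 lay below control array 3, so the groups overlapped, and the difference was 0.67 with a standard error of 0.22, or 1.59-fold. It was 0.92 within slide row 1 and 0.41 within row 2, and 0.29 with normexp background correction. A further Il1a probe with 1 spot was not well above background on any array.

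Il1b stood at -2.46, -2.85, -2.72 and -3.20 on the control arrays and at -2.17, -2.54, -2.38 and -2.35 on the PMSG arrays. Control array 1 lay above PMSG array 2, and the groups overlapped for that reason alone. The difference was 0.45 with a standard error of 0.17. The median SD between its 10 spots on an array was 0.09 log2 units, against an SD between the 4 arrays of 0.31 in controls and 0.15 in the PMSG group.

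For Il1rn, the receptor antagonist, and Il18, a cytokine of the family with its own receptor, the groups overlapped. Il1rn stood at -2.0, -2.04, -1.71 and -1.90 in controls and at -1.83, -1.90, -1.73 and -1.66 in arrays labelled PMSG, a difference of 0.13 with a standard error of 0.11 that turned to -0.03 when each array was centred on its median. Il18 stood at 0.65, 0.36, 0.51 and 0.38 in controls and at 0.47, 0.65, 1.15 and 0.53 in the PMSG group. Its difference was 0.23 with a standard error of 0.16, and it was 0.53 within slide row 1 and -0.08 within row 2. In scaled level PMSG array 3 was the highest array for Il18 and also for Il33, Il1a and the Il1rap variant 2 probe. This array had the lowest 75th percentile, 769 units, and before scaling it was the highest for Il18 only among these probes.

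**Figure D2:**
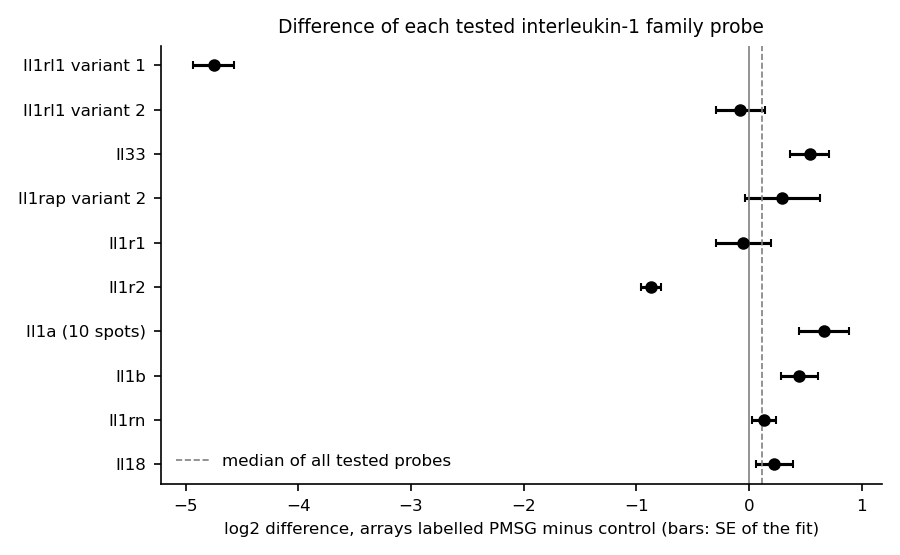
Log2 difference between arrays labelled PMSG and control for the 10 interleukin-1 family probes above background (points), with the standard error of the fit (bars) and the median of all tested probes, 0.11 (dashed line). The Il1rl1 variant 1 probe stands at -4.75 and Il1r2 at -0.87, and the other 8 probes lie between -0.08 and 0.67.

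Of the 10 member probes that could be tested, 4 passed the adjusted threshold of the fit over all probes, against 34.2% of all tested probes. Il1rl1 variant 1 and Il1r2 were lower (background 16.6%), and Il33 and Il1a were higher (background 17.6%). The groups did not overlap for 3 of the 10, against 36.6% of all tested probes, with 2 lower (background 18.6%) and 1 higher (background 17.9%). Nothing is read from these shares, since the members were chosen from this contrast. The median log2 difference of the 10 probes was 0.18, beside 0.11 over all tested probes. Il1rl1 variant 1 and Il1r2 passed the threshold and stayed apart in all 17 alternatives, whereas Il33 passed in 7 of 17, Il1a in 5 and Il1b in 3. Il33 remained apart between groups in 15 of 17.

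Il1rl1 and its receptor relatives lie together on rat chromosome 9, and the neighbours of Il1rl1 were examined within 400 kb on either side. The window holds 17 probes, of which 15 were tested and 4 passed the threshold, 2 of them members. Over all tested probes 34.2% passed. Il1r2 lies 153 kb before Il1r1, and Il1r1 lies 144 kb before the Il1rl1 variant 1 probe. Between Il1r1 and Il1rl1 lies Il1rl2, which encodes the receptor for interleukin-36 and differed by 0.45 (adjusted p = 0.372). Directly after Il1rl1 comes Il18r1, which encodes the interleukin-18 receptor chain and differed by -0.18 (adjusted p = 0.583). The non-member probes past the threshold, named after their values were seen, were Slc9a2, a sodium/proton exchanger gene, which rose by 0.99 (adjusted p = 0.00291), and 1 of the 2 Mfsd9 probes, which rose by 1.22 (adjusted p = 0.0489). The other Mfsd9 probe differed by 0.21 (adjusted p = 0.119).

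**Figure D3:**
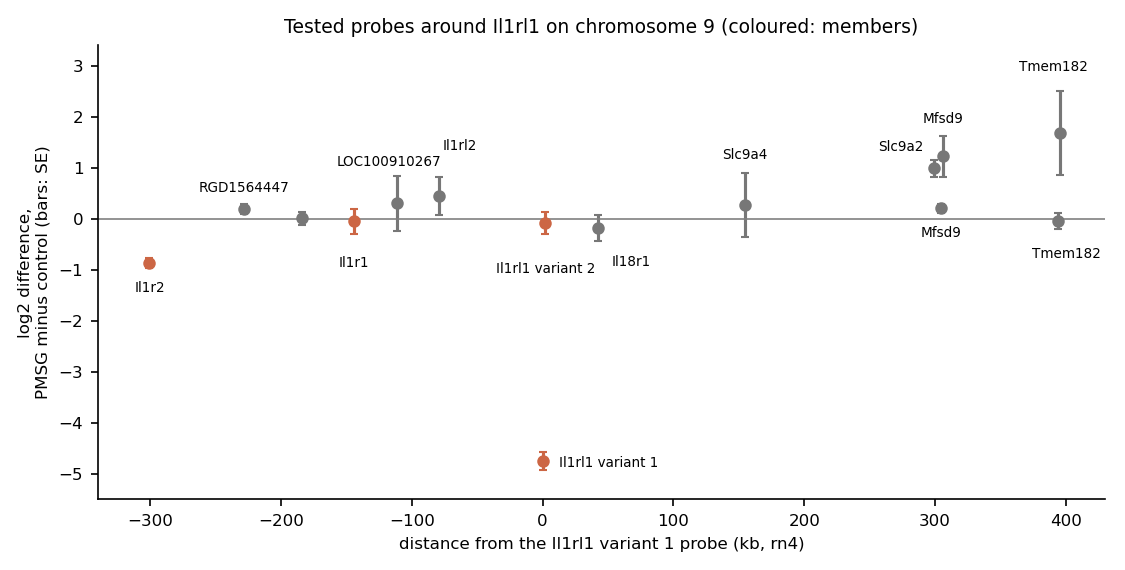
Log2 difference between arrays labelled PMSG and control (bars: standard error) of the 15 tested probes within 400 kb of the Il1rl1 variant 1 probe, by distance in kb on the build rn4, with members in orange and other probes in grey; 1 probe without a gene symbol is drawn unnamed. The variant 1 probe at -4.75 stands alone at the bottom, and the variant 2 probe beside it is at -0.08.

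The probes whose profile over the 8 arrays was most like that of Il1rl1 variant 1 were sought among 25293 tested non-member probes, by the root mean square distance between profiles centred on their own means. Such a profile is mostly the difference between the groups. The 5 nearest genes were A2m, which encodes a protease inhibitor of plasma (distance 0.24 log2 units, difference -4.51), Ptpn5, a tyrosine phosphatase gene (0.38, -4.25), Vtcn1, an inhibitory ligand of the B7 family (0.45, -4.45), Hp, which encodes haptoglobin (0.47, -3.96), and Tpsg1, which encodes a tryptase (0.52). A second A2m probe differed by -4.45 and a second Vtcn1 probe by -3.92. Tpsg1 was well above background on 4 control arrays and on 0 arrays labelled PMSG. It was therefore at least 4.40-fold lower, taking as its floor, on each dim array, the higher of the lowest signal well above background and its own.

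The wider interleukin-1 system was described through 5 lists of genes outside the family, with 1 probe per gene, the brightest. Of 81 genes listed, 75 had a probe and 65 were tested, of which 9 rose and 13 fell in the arrays labelled PMSG by limma, adjusted over all tested probes. That is 33.8%, beside 34.2% of all tested probes, and the median difference of the 65 was 0.03. In the list of relatives and decoys 1 of 7 tested genes rose and 0 fell. It was Il1f10, the gene for interleukin-38, at 1.54 (adjusted p = 0.0394), which was above background on 1 of 4 control arrays and no longer passed in 10 of 17 alternatives, among them those without control array 1, 2 or 4 or without PMSG array 3 or 4. The decoy gene Il18bp, which encodes the interleukin-18 binding protein, differed by -0.22 (adjusted p = 0.380), and Sigirr, an inhibitory receptor of the family, by -0.17 (adjusted p = 0.270).

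Of 10 tested genes that process the cytokines, 2 rose and 0 fell (20%, beside 34.2% of all tested probes called). Prtn3, which encodes proteinase 3, rose by 1.06 (adjusted p = 4.8e-04), or by 0.44 with normexp background correction. Ctsg, which encodes cathepsin G, rose by 0.90 (adjusted p = 0.0413), was above background on 1 of 4 control arrays and lost the call in 10 of 17 alternatives, among them those without control array 1, 3 or 4 or without PMSG array 1, 2 or 3. Both are proteases of granulocytes. Elane, named after its value was seen and also on the neutrophil list, differed by -0.25 (adjusted p = 0.526). Casp1, the caspase that cleaves the precursors of interleukin-1 beta and interleukin-18, differed by -0.32 (adjusted p = 0.0713), and the inflammasome gene Nlrp3 was not well above background on any array.

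Of 22 tested genes of the signal from receptor to NF-kappaB, 1 rose and 5 fell (27.3%, beside 34.2% of all tested probes called). The median of the list was 0.12, beside 0.11 over all tested probes. Irak4, the first kinase recruited to the receptor complex, fell by 0.81 (adjusted p = 0.00484), and Map3k7, which encodes the kinase TAK1, fell by 0.73 (adjusted p = 0.00130). The other 3, named after their values were seen, were Irak1 (-0.61), the adaptor gene Myd88 (-0.58) and Chuk (-0.45), which encodes a subunit of the IkappaB kinase. Nfkbiz, an inducible nuclear IkappaB protein gene, rose by 0.76 (adjusted p = 0.00750). With normexp background correction Irak4 (adjusted p = 0.0570) and Nfkbiz (adjusted p = 0.0635) did not pass, nor did Nfkbiz with quantile normalization (adjusted p = 0.0725).

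Of 15 tested genes known to be induced by interleukin-1, 4 rose and 6 fell (66.7%, beside 34.2% of all tested probes called). The largest falls were those of Ccl7 at -2.13 (adjusted p = 3.78e-04), Sele at -1.99 (adjusted p = 2.26e-04) and Ccl2 at -1.90 (adjusted p = 3.74e-05). Ccl7 and Ccl2 encode chemokines that attract monocytes, and Sele encodes E-selectin of activated endothelium. Ccl2 stood at 0.37 ± 0.15 (SD, n = 4) in controls and -1.53 ± 0.11 (SD, n = 4) in arrays labelled PMSG, and none of these 3 genes overlapped between groups. The 4 that rose, named after their values were seen, were Ccl20 (1.02), Birc3 (0.87), Nos2 (0.82) and Vcam1 (0.44). Il6 was not well above background on any array. With normexp background correction Ccl7 differed by -1.32 and Sele by -0.95, and both still passed. The median of the list was -0.29 and turned to 0.02 with normexp background correction.

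Of 11 tested genes of type 2 immunity, in which interleukin-33 acts, 1 rose and 2 fell (27.3%, beside 34.2% of all tested probes called). Rora, which encodes a nuclear receptor of innate lymphoid cells and other tissues, fell by 2.41 (adjusted p = 1.93e-04), and Il4ra, the receptor chain for interleukin-4 and interleukin-13, fell by 1.87 (adjusted p = 3.04e-04). Gata3, a transcription factor of type 2 cells, rose by 1.35 (adjusted p = 0.00537) and was above background on 1 of 4 control arrays. With normexp background correction the differences of Rora and Gata3 were -0.76 and 0.31, and both still passed. The cytokine genes Il4, Il5 and Il13 differed by 0.25, -1.33 and 0.32 and did not pass (adjusted p = 0.433, 0.106 and 0.229). Il5 was above background on 2 of 4 PMSG arrays and Il4 on 3 of 4 control arrays.

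**Figure D4:**
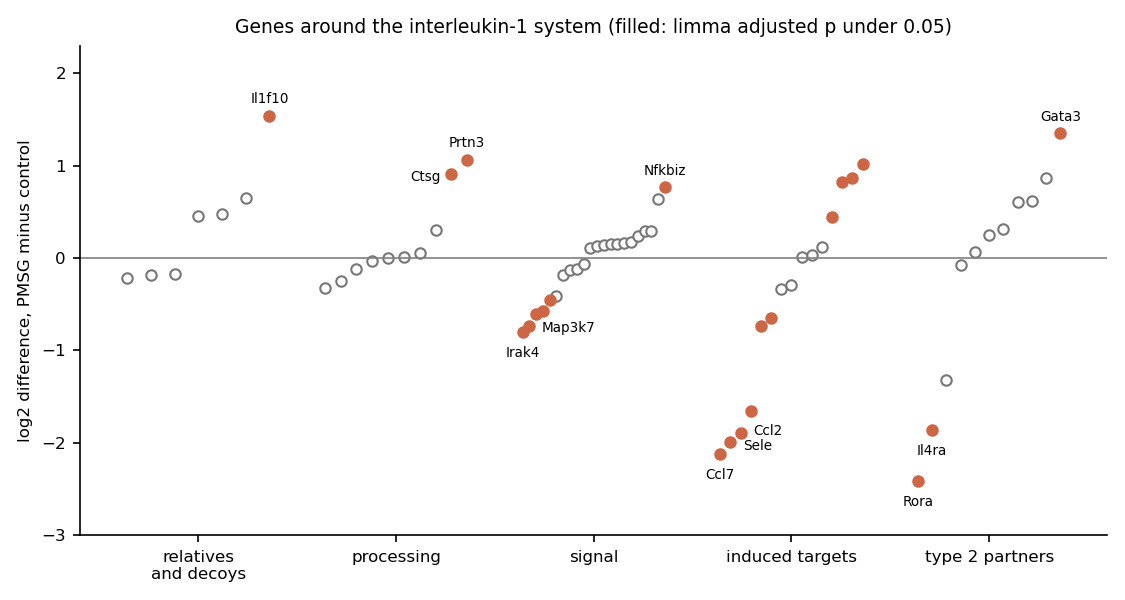
Log2 difference between arrays labelled PMSG and control for the 65 tested genes of the 5 lists around the interleukin-1 system, in order of size within each list, with genes past the limma threshold filled and the rest open. Both directions occur in the signal, induced-target and type 2 lists, with Rora lowest at -2.41 and Il1f10 highest at 1.54.

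Markers of cells that could carry these transcripts were counted in the same fit, in which 17.6% of all tested probes rose and 16.6% fell. In whole ovary, fewer cells of a type and less RNA per cell cannot be told apart. Of 9 tested mast cell genes 8 rose and 0 fell, with a median of 0.85, and their summed signal, in units of the 75th percentile, was 0.70 to 1.09 on control arrays and 1.55 to 2.03 on PMSG arrays. Hdc, which makes histamine, rose by 1.37 (adjusted p = 7.12e-04), the chymase gene Cma1 by 1.35 (adjusted p = 0.00353) and the tryptase gene Tpsab1 by 1.24 (adjusted p = 0.00184). The tryptase gene Tpsg1, which was not on the mast cell list, was lower, as given above. Ms4a2, the beta chain of the IgE receptor and a defining mast cell gene, was above background on 0 control and 2 PMSG arrays. Of 9 tested genes of T cells and innate lymphoid cells 6 rose and 0 fell, with a median of 1.1, and the sum was 0.80 to 1.08 in controls and 1.33 to 2.69 in the PMSG group. Cd247 (1.47, adjusted p = 0.00577) and Cd3g (1.46, adjusted p = 0.0161) are chains of the T cell receptor complex. Gata3, above background on 1 of 4 control arrays, belongs to this list too. Of its other genes, named after their values were seen, Cd3d rose by 1.03 (adjusted p = 0.00934) and made up most of the summed signal. Il7r differed by 0.61 (adjusted p = 0.357). Klrb1 was not well above background on any array. With normexp background correction the median was 0.53 for the mast cell list and 0.51 for this one.

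Il1rl1 variant 1 was lower on the same arrays on which these markers of mast cells and lymphoid cells were higher. The dim Il1rl1 variant 2 probe differed by -0.08 with a standard error of 0.22. Rora of the type 2 list, a gene of innate lymphoid cells and other tissues, differed by -2.41, or by -0.76 with normexp background correction. In the same list Gata3 rose by 1.35. Il7r (0.61), Ptgdr2 (0.07) and Bcl11b (-0.08), named after their values were seen, did not pass (adjusted p = 0.357, 0.922 and 0.872). The endothelium list had 5 lower and 1 higher of 10 tested genes, with a median of -0.48 (-0.28 with normexp background correction) and a sum of 21.9 to 25.5 in controls and 17.8 to 19.3 in the PMSG group. Flt1, a receptor for vascular endothelial growth factor, fell by 1.04 (adjusted p = 0.00574), Eng, which encodes endoglin, by 0.90 (adjusted p = 0.00186), and Tek, the angiopoietin receptor gene, by 1.20 (adjusted p = 0.00345), with Tek above background on 3 of 4 PMSG arrays and its call lost with normexp background correction (adjusted p = 0.175). Of the other endothelial genes, named after their values were seen, Kdr fell by 0.43 (adjusted p = 0.00948) and made up most of the summed signal. Vwf rose by 0.50 (adjusted p = 0.00907). Cdh5 (0.54, adjusted p = 0.175) and Pecam1 (-0.16, adjusted p = 0.409) did not pass. The part of mast cells, lymphoid cells and endothelium in the values of Il1rl1, Il1r2 or Sele was not tested.

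Among cells known to make or answer interleukin-1, 3 of 12 tested macrophage and monocyte genes (25%, beside 34.2% of all tested probes called) rose and 0 fell, with a median of 0.22 and a sum of 29.8 to 40.7 in controls and 36.7 to 45.1 in the PMSG group. Aif1 rose by 0.68 (adjusted p = 0.00444). C1qa (0.62, adjusted p = 0.0434) and Cd68 (0.51, adjusted p = 0.0398) each lost the call in 9 of 18 alternatives, among them those without control array 1, 2 or 4 or without PMSG array 1, 2 or 3. Of 10 tested neutrophil genes 1 rose and 1 fell (20%), with a median of 0.17 and overlapping sums of 3.60 to 4.63 and 3.42 to 5.26. The calprotectin gene S100a8 fell by 1.97 (adjusted p = 0.0278), a call lost without control array 3 or PMSG array 1 or 2, and Ncf1, a subunit gene of the phagocyte oxidase, rose by 0.60 (adjusted p = 0.00525). The part of these cells in the values of Il1a, Il1b and Il1r2 was not tested.

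The tissue was recognisable as ovary, with every tested marker of granulosa and theca cells well above background on all 8 arrays. Of 11 tested granulosa and luteal genes 1 rose and 5 fell, and the sum was 325 to 386 in controls and 183 to 263 in the PMSG group. Cyp11a1, the enzyme that starts steroid synthesis from cholesterol, fell by 3.36 (adjusted p = 2.32e-04), Star, the carrier of cholesterol into mitochondria, fell by 2.75 (adjusted p = 0.00541), and Amh, the anti-Müllerian hormone gene of growing follicles, rose by 3.03 (adjusted p = 2.61e-04). Of 5 tested theca genes, with Star counted here as well, 2 rose and 1 fell, and the sums of 60.8 to 68.2 and 27.4 to 63.2 overlapped. The theca hormone gene Insl3 rose by 2.60 (adjusted p = 3.47e-04), and Ptch1, the hedgehog receptor gene, rose by 0.79 (adjusted p = 0.0187), a call lost without control array 1 and with normexp or quantile normalization. Of 10 tested genes of fibroblasts and smooth muscle 4 rose and 0 fell, with Dcn at 0.70 (adjusted p = 0.0151), Lum at 0.58 (adjusted p = 0.0252) and Pdgfra at 0.50 (adjusted p = 0.0111), all 3 lost when arrays were centred on the median. Lum also lost the call without control array 1, 2 or 4 or without PMSG array 3. The sums of this list were 203 to 252 in controls and 225 to 278 in the PMSG group.

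**Figure D5:**
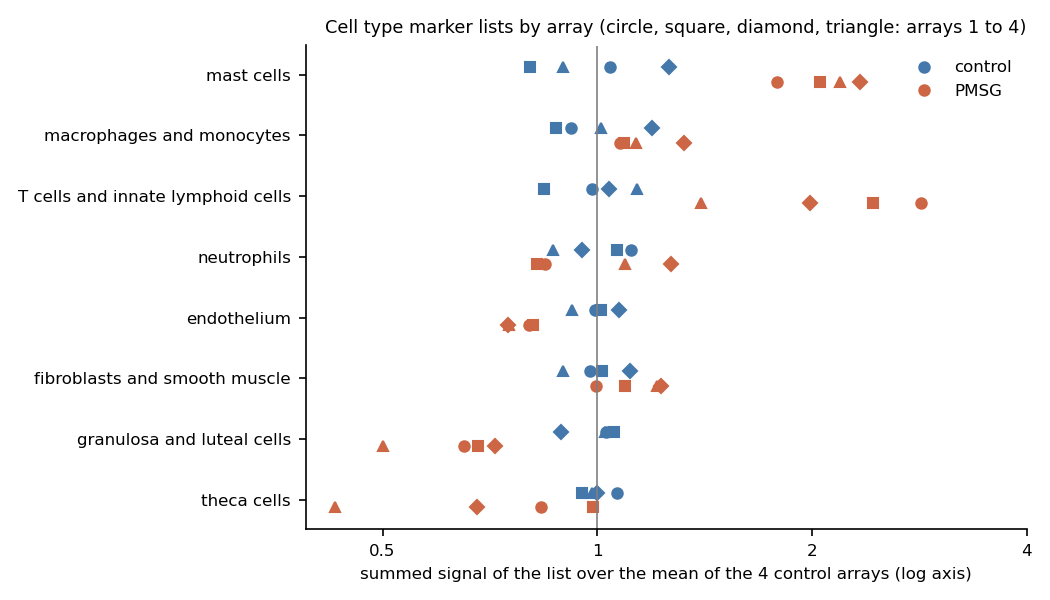
Summed signal of each cell type marker list on each array, divided by the mean of the 4 control arrays (log axis; blue: control, orange: arrays labelled PMSG). Mast cell and T cell lists lie higher and the endothelium and granulosa lists lower on the PMSG arrays without overlap, whereas the neutrophil and theca lists overlap. Bright genes weigh most in a sum: Kdr makes up most of the endothelium sum and Cd3d most of the T cell sum.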

How the data were processed

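The authors' scanner files hold spot intensity from Agilent Feature Extraction 11.5.1.1 and probe positions on the build rn4, per the file headers. A further deposited table gives log2 values, which matched log2 signal minus the 75th percentile of each array (correlation with the own array 0.998 to 1.000, column medians -3.2 to -2.8), with no centring of probes. It served as an alternative.

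From the scanner files, control and outlier spots were left out, the log2 processed signals of a probe were averaged and each array was scaled to its 75th percentile. Probes well above background on at least 4 of the 8 arrays entered a fit of the 2 groups by lmFit and eBayes without covariates (limma 3.58.1, R 4.3.3), with Benjamini-Hochberg adjustment over all 25303 and a threshold of 0.05. No spot was saturated. The procedure was tested on simulated data. Columns not used numbered 0.

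All 9 member symbols were found in the RefSeq table of GRCr8, used for names only. The members and lists were chosen with earlier results of these data known. Named are all member probes, the 3 largest called genes of each list and the 5 profiles nearest to Il1rl1, besides those said to be named after their values were seen. Il18rap, Tab3, Relb, Rel, Tnfaip3, Saa1 and Cyp19a1 were not analysed here. Lists share Elane, Lcn2, Il7r, Gata3 and Star. Samples with the same replicate number did not deviate together (correlations 0.04, 0.04, 0.18 and -0.02), so numbers were not taken as pairs.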

Additional observations from a re-analysis of the deposited data

Results flagged for a closer look

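Over the named probes and the list sums, 122 groups of 4 arrays were examined, and in 5 of them 1 array stood apart from the other 3 by more than the critical value of Dixon's test, which compares the gap with the range; chance alone gives about 6.1. The Il1rap variant 2 probe stood at -4.09 on control array 1, against -4.88 to -4.75 on the other control arrays (ratio 0.841). Ptpn5, one of the genes most like Il1rl1 in profile, stood at -1.12 on the same control array, against -1.43 to -1.39 (ratio 0.857). Sele stood at -2.50 on control array 2, against -3.27 to -3.17 (ratio 0.869). Map3k7 stood at -1.39 on PMSG array 3, against -1.17 to -1.15 (ratio 0.926). Insl3 stood at 2.49 on PMSG array 4, against 3.5 to 3.59 (ratio 0.921).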

How the results depend on the processing

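The Il1rl1 variant 1 difference was -3.20 with normexp background correction, whose offset of 50 exceeds the probe's unscaled signals on the PMSG arrays, and -4.92 to -4.65 with each array left out in turn. Within the slide rows, a comparison chosen after seeing the data, it was -4.93 and -4.57. Directions of the Il1rl1 variant 2, Il1r1, Il1rn, Il18 and Il1rap variant 2 probes were not stable over the alternatives and slide rows. Probes past the threshold numbered 8658 with a range of 6552 (control array 4 left out) to 11382 (PMSG array 4 left out), and the replicate block gave 7346. Called pathway genes ranged from 17 to 24 around 22, with 20 under the replicate block, and called marker genes from 30 to 42 around 37. The replicate block ended the calls of Il33, Cd3g, Cd68, Ctsg, Ptch1 and S100a8 among the named genes. Higher probes were 51.4% of those called, but 34.5% (2914 higher, 5534 lower) under median centring, and the deposited values gave 50.8%. Medians of the processing, signal, type 2, neutrophil and theca lists lay near 0 and changed sign in some settings. Dim probes, such as Il1rl1 variant 2 and Il1r1, limit what difference could be seen.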
